A study of Mus musculus with 13 samples.

Results

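The miRNAs described here are mmu-miR-199a-5p, mmu-miR-199a-3p, mmu-miR-199b-5p and mmu-miR-214-3p, which were taken by name from the array rows and make up 4 of the 1079 mouse miRNAs measured. They were compared between flank tumors of mice on 2 diets and with each other across the tumors. The tumors were grown from B78H1 cells, an amelanotic mouse melanoma clone of the B16 lineage that lacks Tap-2 and MHC class I, injected subcutaneously into both flanks of male C57BL/6 mice whose age is not given in the sources used here. In the curcumin group (n = 7) the mice ate chow with 4% curcumin, a polyphenol of turmeric, and in the control group (n = 6) they ate the standard chow. Curcumin feeding began 14 days before the injection of the cells and went on until the experiment ended. Tumor size was followed for 28 days. The labels do not say which tumor came from which mouse, so p-values measure the spread between these tumors. The group sizes are those of the mice in the methods.

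A miRNA is cut from an RNA hairpin, and the products of its 5′ and 3′ arms are named -5p and -3p. The mature strand guides a silencing complex to mRNAs, mainly through the bases called the seed. The hairpins Mir199a-2 and Mir214 lie together within Dnm3os, a noncoding RNA on the opposite strand of the dynamin 3 gene Dnm3, while Mir199a-1 and Mir199b lie within the dynamin genes Dnm2 and Dnm1. The family is known for high levels in fibroblasts and other mesenchymal cells, for a part in skeletal development and for a rise in fibrotic tissue.

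The mature sequences are shown because shared and differing bases decide which of the measured rows can be told apart. They are RefSeq sequences of the build GRCm38.p6, written 5′ to 3′, with the seed (bases 2 to 8) in capitals. Of the 4 members, 3 were matched, and the other is mmu-miR-199b-5p.
mmu-miR-199a-5p: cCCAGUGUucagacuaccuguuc
mmu-miR-199a-3p: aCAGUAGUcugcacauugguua
mmu-miR-214-3p: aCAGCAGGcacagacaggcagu
mmu-miR-214-5p: uGCCUGUCuacacuugcugugc
The last of these is the other arm of the Mir214 hairpin and also has a row on the array. The 3 matched members have 3 different seeds. The seed of mmu-miR-214-3p is also that of mmu-miR-761, and apart from mmu-miR-199b-3p no other mature sequence of the table holds the seed of either miR-199a arm.

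The sequence of mmu-miR-199a-5p stands at chr1:162217844-162217866 (plus strand, Mir199a-2) and at chr9:21496537-21496559 (minus strand, Mir199a-1). mmu-miR-199a-3p stands at chr1:162217883-162217904 and chr9:21496498-21496519 of the same hairpins. mmu-miR-214-3p has 1 position, chr1:162223438-162223459 (plus strand), and 5444 bases lie between the hairpins Mir199a-2 and Mir214. The mature mmu-miR-199b-3p (chr2:32318524-32318545, plus strand) is identical to mmu-miR-199a-3p over all 22 bases, so the signal named mmu-miR-199a-3p holds both. When mmu-miR-199a-5p was laid along the Mir199b hairpin, 22 of its 23 bases matched at hairpin bases 26 to 48, seed included. The difference was C10U, counted from the 5′ end of mmu-miR-199a-5p, and it is the capital in the hairpin stretch below. Whether the probes for mmu-miR-199a-5p and mmu-miR-199b-5p bind each other's target was not tested.
Mir199b, bases 26 to 48: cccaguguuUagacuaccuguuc
The pair of hairpins that share Dnm3os are given whole, with the mature arms in capitals.
Mir199a-2: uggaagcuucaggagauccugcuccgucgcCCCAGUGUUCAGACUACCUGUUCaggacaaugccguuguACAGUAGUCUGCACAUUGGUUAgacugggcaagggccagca
Mir214: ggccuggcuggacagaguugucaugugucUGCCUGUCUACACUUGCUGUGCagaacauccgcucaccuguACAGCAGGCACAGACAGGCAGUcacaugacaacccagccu

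All 4 members had higher values in curcumin tumors than in controls, and for each of them the lowest curcumin tumor lay above the highest control tumor. The 3 miR-199 members rose between 4.41-fold and 5.86-fold with adjusted p-values from 0.00130 to 0.00655 (limma, Benjamini-Hochberg over the 1079 miRNAs). mmu-miR-214-3p was 5.61 higher on the log2 scale, which missed the threshold of 0.05 (adjusted p = 0.0501). Its control values had an SD of 4.65 (n = 6) and lay at the lower limit of the scale in 2 tumors. By this test 3 of the 4 members were higher, whereas 90 of the 1079 miRNAs (8.34%) were, and 171 (15.8%) passed in either direction. Groups that did not overlap, with curcumin above control, were found in 44 of the 1079 miRNAs (4.08%). In these bulk tumors, more cells of a type and more RNA per cell cannot be told apart.

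Values are quantile-normalized array signals on the log2 scale, a step that gives all arrays one distribution, so differences are relative to the other miRNAs of an array. Summed signals at or below 0 after background subtraction were set to −7.03, called the floor. The arrays had summed mouse miRNA signals between 114095 and 281508 in curcumin tumors and between 150272 and 244666 in controls, with 272 to 370 and 313 to 412 miRNAs detected by the scanner software. Curcumin tumor 5 was the dimmest array in both respects. The arrays lay on 2 slides, and on both of them the control tumors took the first row of positions and the curcumin tumors the second, so position and diet cannot be told apart.

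**Figure D1:**
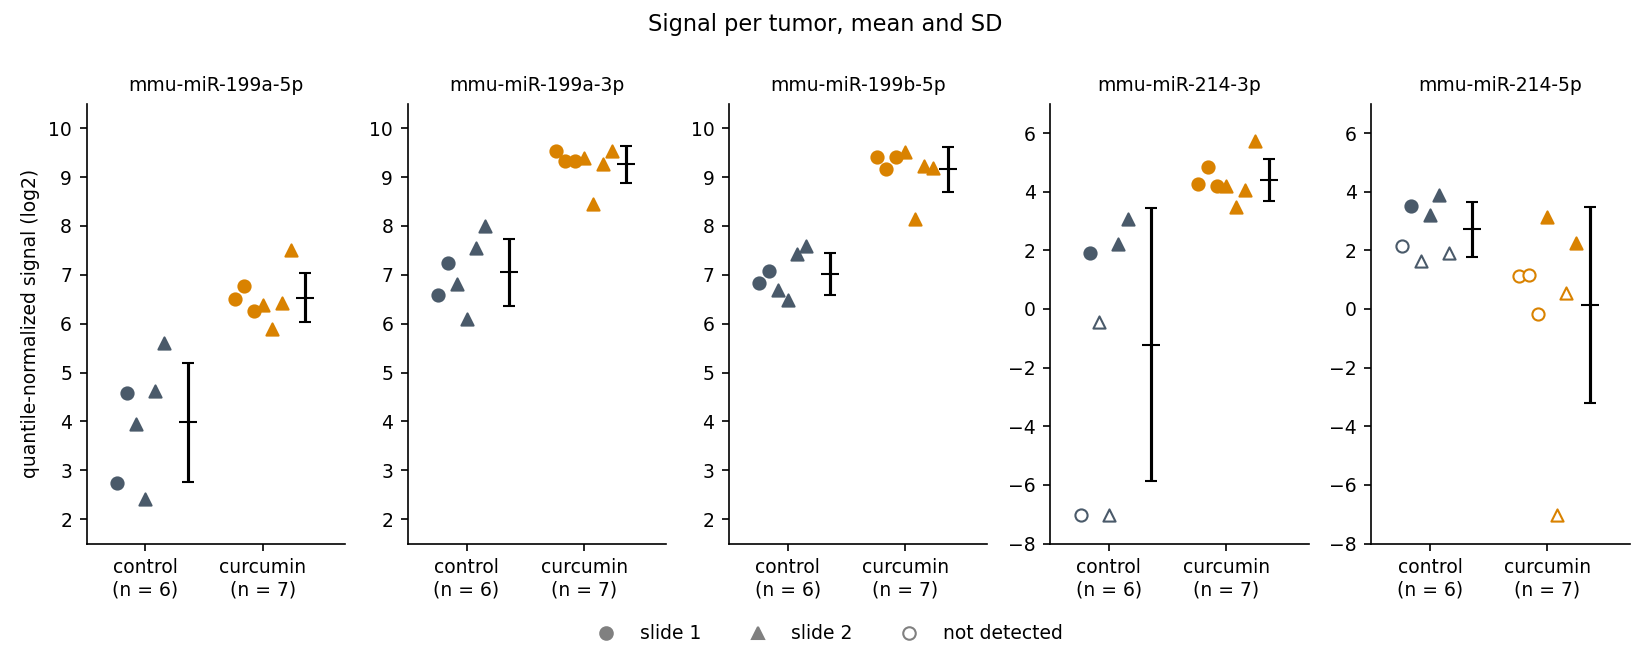
Quantile-normalized log2 signal (vertical axis) of the 4 members and of mmu-miR-214-5p in the 6 control and 7 curcumin tumors, with 1 point per tumor, circles for slide 1, triangles for slide 2, open symbols where the miRNA was not detected, and the mean ± SD beside the points. The diets do not overlap in the first 4 panels, and mmu-miR-214-3p lies at the floor of −7.03 in 2 control tumors.

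mmu-miR-199b-5p, the 5′ arm of the hairpin within Dnm1, had the lowest p-value of the 4 members. Its log2 values in curcumin tumors 1 to 7 were 9.42, 9.17, 9.42, 9.51, 8.14, 9.24 and 9.19, and in control tumors 1 to 6 they were 6.84, 7.07, 6.69, 6.48, 7.42 and 7.59. The means were 9.16 ± 0.47 (SD, n = 7) and 7.01 ± 0.43 (SD, n = 6). Of the 7 curcumin tumors 6 lay close together and tumor 5 lay lower, 0.56 above the highest control. The log2 fold change was 2.14 (standard error 0.25, limma adjusted p = 0.00130), or 4.41-fold with a 95% confidence interval from 3.03 to 6.41. Ranked by p, it was number 2 of the 1079 miRNAs.

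mmu-miR-199a-3p, the 3′ arm shared in sequence by all the miR-199 hairpins, had log2 values of 9.54, 9.32, 9.32, 9.39, 8.45, 9.27 and 9.54 in curcumin tumors 1 to 7. The control tumors 1 to 6 had 6.59, 7.25, 6.81, 6.09, 7.56 and 7.99. Again the curcumin tumors apart from tumor 5 were nearly level, while the controls were more spread (SD 0.38, n = 7, against 0.69, n = 6), and the gap between the groups was 0.46. The means of 9.26 and 7.05 differed by 2.21 (standard error 0.30, limma adjusted p = 0.00179), or 4.63-fold (95% confidence interval 2.95 to 7.27).

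mmu-miR-199a-5p, the 5′ arm of both Mir199a hairpins, was detected on all arrays. Its log2 values were 6.50, 6.76, 6.26, 6.39, 5.88, 6.42 and 7.52 in curcumin tumors 1 to 7, and 2.75, 4.58, 3.95, 2.40, 4.61 and 5.61 in control tumors 1 to 6. The control tumors covered a wide range, from control 4 to control 6, and the closest tumors of the diets were 0.28 apart. The mean was 6.53 ± 0.51 (SD, n = 7) with curcumin and 3.98 ± 1.22 (SD, n = 6) without. The rise of 2.55 on the log2 scale (standard error 0.50, limma adjusted p = 0.00655) corresponds to 5.86-fold (95% confidence interval 2.76 to 12.4). Of the 243 miRNAs detected on all arrays, 49 (20.2%) passed as higher, and among these mmu-miR-199a-5p stood at rank 4 by log2 fold change, mmu-miR-199a-3p at rank 7 and mmu-miR-199b-5p at rank 8.

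**Figure D2:**
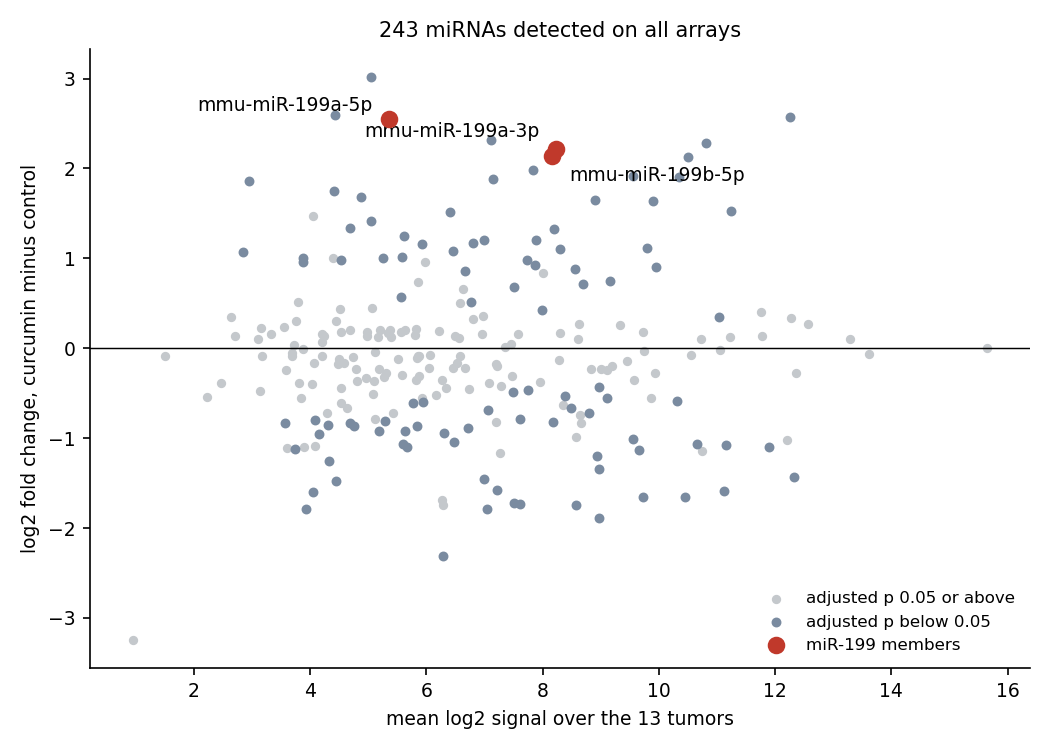
Log2 fold change, curcumin minus control (vertical axis), against the mean log2 signal over the 13 tumors (horizontal axis) for the 243 miRNAs detected on all arrays, with the 3 miR-199 members in red. The members lie at 2.14, 2.21 and 2.55, in the upper part of the cloud, whose median is −0.09.

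mmu-miR-214-3p, the 3′ arm of Mir214, was the member not detected on all arrays. It was detected in 7 of 7 curcumin tumors, with log2 values of 4.25, 4.84, 4.19, 4.20, 3.47, 4.05 and 5.74, and in 3 of 6 control tumors. The control values were at the floor in tumors 1 and 4, −0.45 in tumor 3, and 1.91, 2.22 and 3.08 in tumors 2, 5 and 6, where it was detected. The diets did not overlap, with a gap of 0.39. Before normalization the summed signals ran from 4.22 to 54.9 in curcumin tumors and from −1.52 to 9.25 in controls. On that scale the dimmest curcumin tumor, tumor 5 (4.22), lay below the 3 detected controls (5.72, 7.61 and 9.25).

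The size of the difference in mmu-miR-214-3p depended on how values near 0 were treated. With the floor at −7.03 the log2 difference was 5.61 (standard error 1.75, limma adjusted p = 0.0501). With the floor at a signal of 1 it was 3.19 (standard error 0.58, adjusted p = 0.00463), and 89 of the 1079 miRNAs (8.25%) passed as higher. In the log2 values that the authors deposited it was 2.09 (standard error 0.35, adjusted p = 0.000976), with curcumin tumors from 4.19 to 5.85 and controls from 1.60 to 3.66. The direction was the same in each. The last of these sizes is close to those of the miR-199 members on the same deposited scale. Those were 2.23, 2.17 and 2.10 for mmu-miR-199a-5p, mmu-miR-199a-3p and mmu-miR-199b-5p. Control tumors 1 and 4, with normalized signals of −1.35 and −0.74 before log2, had deposited values of 1.60 and 1.87. The deposited scale thus raises signals near 0, which shrinks the fold of a dim miRNA, so this closeness does not show equal changes. On that scale 103 of the 1079 miRNAs passed as higher (9.55%).

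When the 1716 ways to divide the 13 tumors into groups of 7 and 6 were enumerated, the exact permutation test gave p = 0.00117 for each of the 4 members (two-sided), the smallest value it can give. Without normalization between arrays the signals of the members overlapped between diets through curcumin tumor 5. The log2 fold changes were then 2.45, 2.20 and 2.12 for mmu-miR-199a-5p, mmu-miR-199a-3p and mmu-miR-199b-5p, of which that of mmu-miR-199a-5p no longer passed (limma adjusted p = 0.0602), where 10 of the 1079 miRNAs (0.927%) passed as higher.

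**Figure D3:**
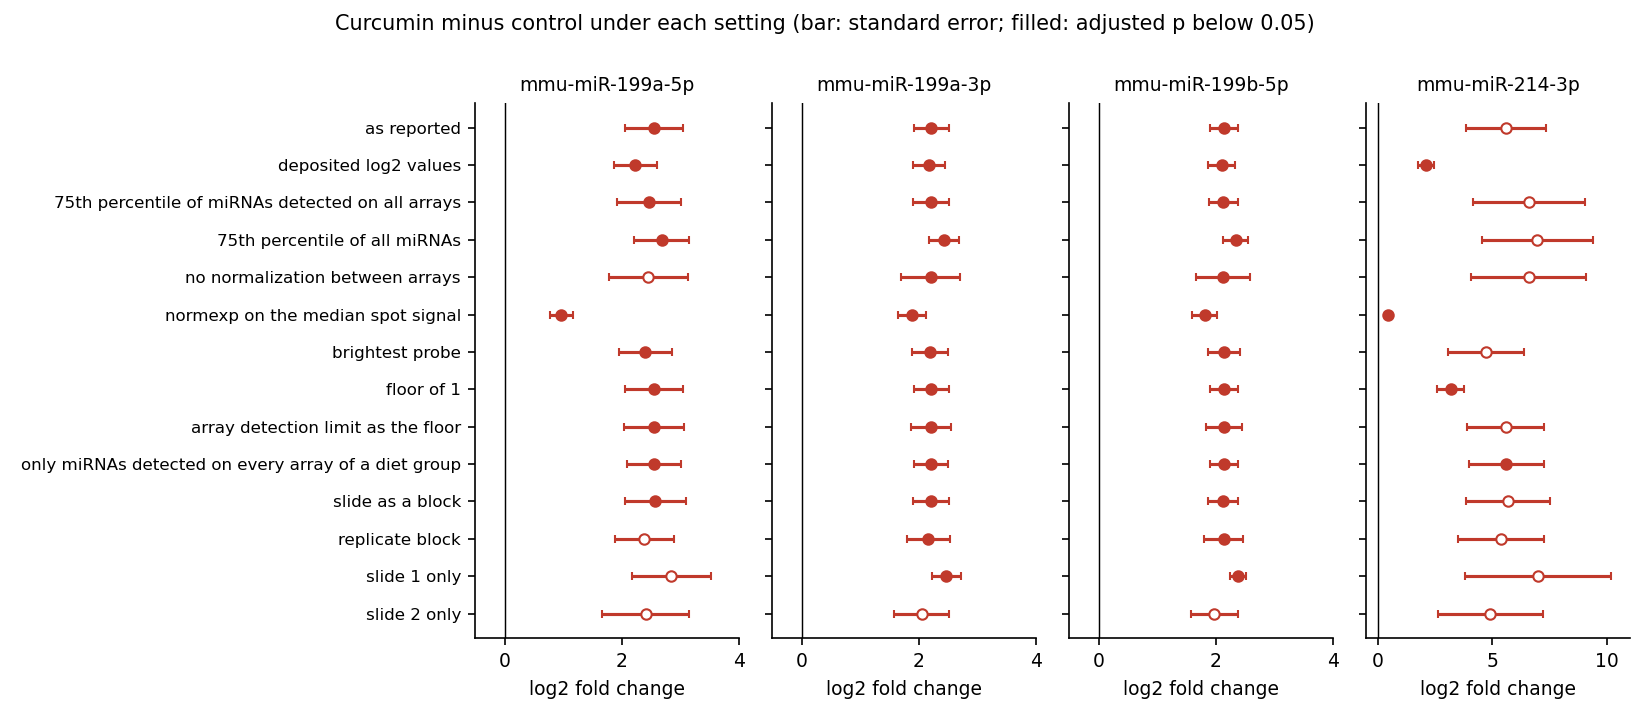
Log2 fold change, curcumin minus control (horizontal axis), with its standard error as a bar, for each member under each processing setting (vertical axis), filled where the limma adjusted p was below 0.05. The miR-199a-3p and miR-199b-5p points stay between 1.81 and 2.47, whereas mmu-miR-199a-5p runs from 0.97 to 2.85 and mmu-miR-214-3p from 0.44 to 6.99.

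Each member was measured by 2 probes, each printed in 20 spots, and both probes had higher group means in curcumin tumors for every member. The log2 fold changes per probe were 2.27 and 2.22 for mmu-miR-199a-3p, and 2.02 and 2.17 for mmu-miR-199b-5p. The probes of these bright members therefore gave like differences. For mmu-miR-199a-5p the brighter probe gave 2.43 (limma adjusted p over single probes 0.00777), whereas the dimmer one, at the floor in 1 control tumor, gave 4.73 and did not pass (adjusted p = 0.170). Neither probe of mmu-miR-214-3p passed, with 7.88 (adjusted p = 0.0537) and 5.28 (adjusted p = 0.140). In all 5 of the 8 member probes passed as higher, against 164 of the 2754 single probes (5.95%). The scanner's own error of the summed signal was 7.29% to 7.73% of it for mmu-miR-199a-3p and 7.49% to 7.70% for mmu-miR-199b-5p. It was 8.73% to 36.3% for mmu-miR-199a-5p, and 8.49% to 36.4% for mmu-miR-214-3p in curcumin tumors. In the controls where mmu-miR-214-3p was detected it was 21.1% to 32.0%, in control tumor 3 the error was 543% of the signal, and in control tumors 1 and 4 the signal was below 0. This error covers the measurement of an array and not the spread between tumors.

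The ratio of the brighter to the dimmer probe of mmu-miR-199a-3p was nearly constant, with a log2 ratio of 0.75 ± 0.03 (SD) over the 13 arrays. That of mmu-miR-199b-5p averaged 1.24 ± 0.07 with curcumin (SD, n = 7) and 0.99 ± 0.17 without (SD, n = 6), and this difference was not tested.

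The diets could be compared within each slide. On slide 1, with 3 curcumin and 2 control tumors, the log2 fold changes were 2.85, 2.47, 2.38 and 6.99 for mmu-miR-199a-5p, mmu-miR-199a-3p, mmu-miR-199b-5p and mmu-miR-214-3p. On slide 2, with 4 tumors of each diet, they were 2.41, 2.05, 1.98 and 4.91 in the same order. Every member was thus higher in curcumin tumors on both slides. The limma adjusted p-values were 0.170, 0.0479, 0.0209 and 0.501 on slide 1 and 0.236, 0.198, 0.198 and 0.415 on slide 2, where 1 of the 1079 miRNAs (0.0927%) passed as higher, against 14 (1.30%) on slide 1. The effect of the diet differed between the slides by −0.44, −0.42, −0.40 and −2.08 (slide 2 minus slide 1), all with an adjusted p of 1 in the interaction model, in which 0 of the 1079 miRNAs (0%) passed and 11 had an unadjusted p below 0.05.

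The effect of the diet was then compared between members, as the difference of 2 members within each tumor. A plain scaling factor of an array cancels in such a difference for signals above the floor, whereas quantile normalization and the floor do not. The 3 pairs among the miR-199 members did not pass. The effect in mmu-miR-199a-5p exceeded that in mmu-miR-199a-3p by 0.34 (standard error 0.28, adjusted p = 0.346) and that in mmu-miR-199b-5p by 0.41 (standard error 0.41, adjusted p = 0.375), and the effects in mmu-miR-199a-3p and mmu-miR-199b-5p differed by 0.071 (standard error 0.14, adjusted p = 0.597; exact permutation test, adjusted over 6 pairs). Against mmu-miR-214-3p the differences were −3.06 for mmu-miR-199a-5p (adjusted p = 0.0140), −3.40 for mmu-miR-199a-3p (adjusted p = 0.0804) and −3.47 for mmu-miR-199b-5p (adjusted p = 0.112; exact permutation test). These 3 rest on control values at the floor, and without normalization the difference of mmu-miR-199a-5p was −4.14 and did not pass (adjusted p = 0.203, exact permutation test). That difference did pass with a floor of 1 (−0.64, adjusted p = 0.0210) and with the brightest probe (−2.32, adjusted p = 0.00699, exact permutation test). In the deposited values the 3 differences were 0.14, 0.081 and 0.012, with none of the 6 pairs past the threshold (smallest adjusted p = 0.905, exact permutation test, and smallest unadjusted p = 0.269). The deposited scale raises signals near 0, so it cannot settle whether the effect in mmu-miR-214-3p is larger.

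The members were also compared with each other across the tumors of each diet. In the 6 control tumors Pearson's r of the 6 pairs lay between 0.79 and 0.97, with 5 pairs past the threshold by r and 6 by Spearman's rho (exact permutation over pairings, Benjamini-Hochberg over 12 relations per statistic). Control tumor 6 had the highest value of all 4 members and control tumor 4 the lowest, tied with control tumor 1 for mmu-miR-214-3p at the floor. Without the 2 tumors farthest from the median, r was still between 0.58 and 0.96, over 4 tumors. In the 7 curcumin tumors r lay between 0.39 and 0.99, and 1 pair passed by r and 2 by rho. These counts depended on the scaling. Without normalization between arrays 4 curcumin and 4 control pairs passed by r, and 6 and 4 by rho, and with the 75th percentile of all miRNAs 3 and 3 passed by r, and 1 and 1 by rho.

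The closest pair in curcumin tumors was mmu-miR-199a-5p with mmu-miR-214-3p, which come from the same Dnm3os transcript where Mir199a-2 is the source. Pearson's r was 0.99 (adjusted p = 0.0133) and rho 0.89 (adjusted p = 0.0333, exact permutation, n = 7), and r was 0.88 without tumors 5 and 7. In controls the same pair had r = 0.97 (adjusted p = 0.0133) and rho = 0.99 (adjusted p = 0.0222, exact permutation, n = 6), with 2 of the 6 values of mmu-miR-214-3p at the floor. mmu-miR-199a-3p with mmu-miR-199b-5p had r = 0.93 (adjusted p = 0.135) and rho = 0.50 (adjusted p = 0.309, exact permutation, n = 7) in curcumin tumors, and this r was 0.11 without tumor 5 alone and −0.11 without tumors 1 and 5, the farthest from the median. Without tumors 5 and 7, the farthest in those settings, it was 0.93 in the signals without normalization and 0.85 with the brightest probe. With the 75th percentile of miRNAs detected on all arrays, also without tumors 5 and 7, it was 0.30. With the 75th percentile of all miRNAs it was 0.32 without tumors 2 and 5, and in the deposited values −0.11 without tumors 1 and 5. In controls that pair had r = 0.97 (adjusted p = 0.0133) and rho = 0.94 (adjusted p = 0.0333, exact permutation, n = 6). mmu-miR-199a-5p with mmu-miR-199b-5p had r = 0.39 (adjusted p = 0.297) and rho = −0.09 (adjusted p = 0.889, exact permutation, n = 7) in curcumin tumors. There tumor 7 was highest in mmu-miR-199a-5p, mmu-miR-199a-3p (level with tumor 1) and mmu-miR-214-3p, but not in mmu-miR-199b-5p, where tumor 4 was highest. The difference between the diets in these correlations was not tested.

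**Figure D4:**
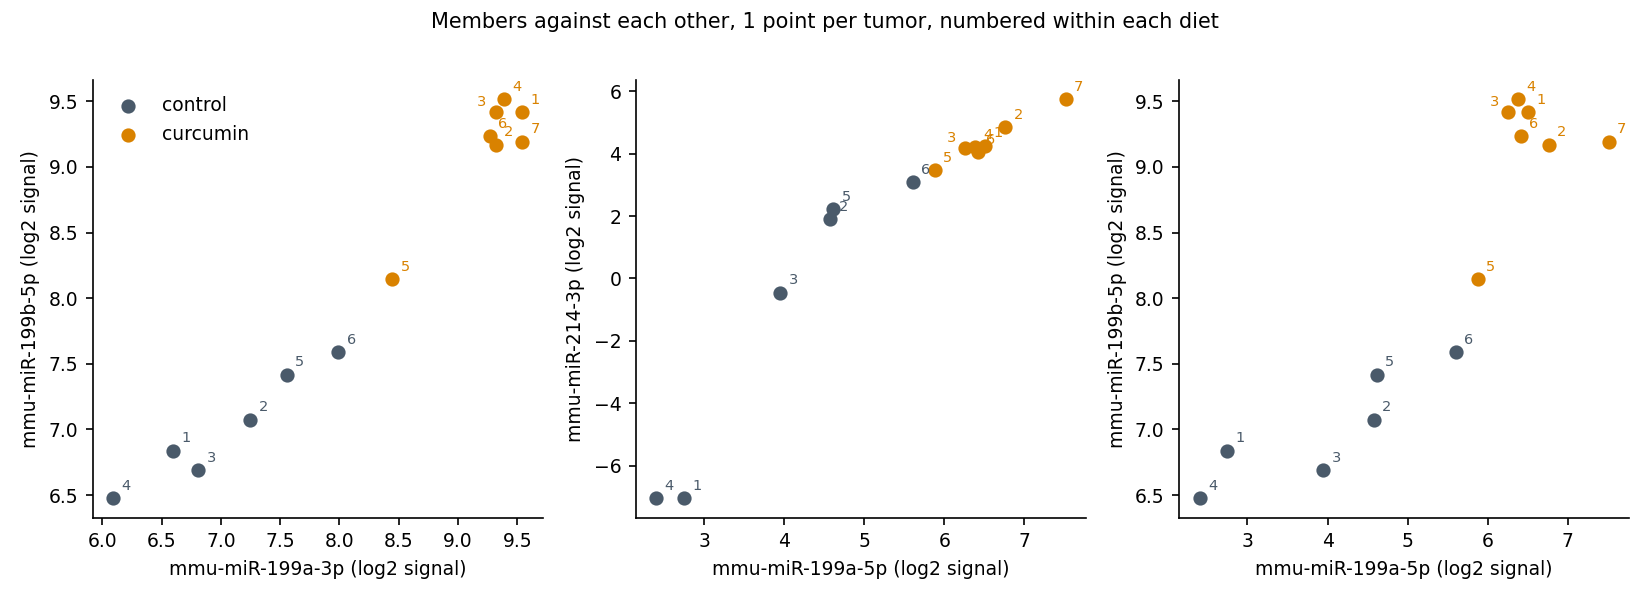
Log2 signals of 3 pairs of members against each other, with 1 point per tumor numbered within its diet (control dark, curcumin orange). mmu-miR-199a-5p and mmu-miR-214-3p rise together in both diets (r = 0.97 and 0.99), and curcumin tumor 5 lies between the other curcumin tumors and the controls in the left and right panels.

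The other arm of the Mir214 hairpin, mmu-miR-214-5p, usually the minor arm, was detected in 2 of 7 curcumin and 3 of 6 control tumors. Its log2 values were 1.13, 1.17, −0.18, 3.14, −7.03, 0.55 and 2.24 in curcumin tumors 1 to 7 and 2.16, 3.51, 1.62, 3.21, 3.90 and 1.92 in control tumors 1 to 6. The groups overlapped, and the log2 difference of −2.58 did not pass (standard error 1.40, limma adjusted p = 0.307). The within-tumor difference of mmu-miR-214-3p minus mmu-miR-214-5p averaged 4.25 ± 2.94 with curcumin (SD, n = 7) and −3.94 ± 4.63 without (SD, n = 6; exact permutation p = 0.00233), a comparison chosen after the values were seen. In the deposited values it was 1.98 ± 0.67 (SD, n = 7) and −0.87 ± 0.86 (SD, n = 6) with an exact permutation p of 0.00117. With the floor at −7.03 neither arm passed limma by itself. mmu-miR-214-3p did pass in the deposited values (limma adjusted p = 0.000976) and with a floor of 1 (limma adjusted p = 0.00463). Neither arm was detected on all arrays. The difference between the diets in mmu-miR-214-3p minus mmu-miR-214-5p was positive under each of the 8 other settings, the smallest being 0.55.

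The miRNAs whose values were most like the mean of the standardized members over the 13 tumors, among 240 other miRNAs detected on all arrays, were mmu-miR-21-5p (r = 0.98), mmu-miR-142-3p (0.97), mmu-miR-511-3p (0.95), mmu-miR-146b-5p (0.95) and mmu-miR-22-3p (0.94). These values share the difference between the diets. After the diet means were subtracted the same 5 miRNAs led, at 0.95 for mmu-miR-21-5p, 0.88 for mmu-miR-142-3p, 0.80 for mmu-miR-146b-5p, 0.80 for mmu-miR-22-3p and 0.78 for mmu-miR-511-3p. miR-21 is abundant in many tumors and in activated fibroblasts, miR-142 is a marker of blood cells, miR-511 is encoded within the macrophage receptor gene Mrc1, and miR-146b is induced by inflammatory signals. All tumors share the array platform and the normalization, and these correlations are given as descriptions.

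Other miRNAs known for high levels in mesenchymal cells were listed beside the members. Of these 23 miRNAs, which include mmu-miR-21-5p and mmu-miR-22-3p, 16 rose and 7 did not pass in limma, beside 8.34% of all miRNAs that rose. Of the 13 that were detected on all arrays 10 rose, beside 20.2% of all such miRNAs. The count of 16 became 5 without normalization, 5 with the replicate number as a block, 4 on slide 1 and 0 on slide 2. The share of all miRNAs that rose was also smaller there, with 0.927% without normalization, 1.30% on slide 1 and 0.0927% on slide 2. None of the 23 fell, also at an unadjusted p below 0.05, and 2 of the 23 were detected on no array. Their median log2 fold change was 1.52, where that of all 1079 miRNAs was 0. The cartilage-enriched mmu-miR-140-5p was higher by 2.12 and mmu-miR-140-3p by 2.28, and the collagen-targeting mmu-miR-29a-3p by 1.52 and mmu-miR-29b-3p by 1.64 (limma adjusted p from 0.00179 to 0.00380). mmu-miR-125b-5p was higher by 1.90 (adjusted p = 0.00179). The miRNAs of smooth muscle cells and pericytes on the list did not pass, with 0.20 for mmu-miR-143-3p (adjusted p = 0.687) and −0.049 for mmu-miR-145-5p (adjusted p = 1), although both were detected on all arrays. The arrays measured no cell type, and whether the members' signal came from stromal or from melanoma cells was not tested.

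**Figure D5:**
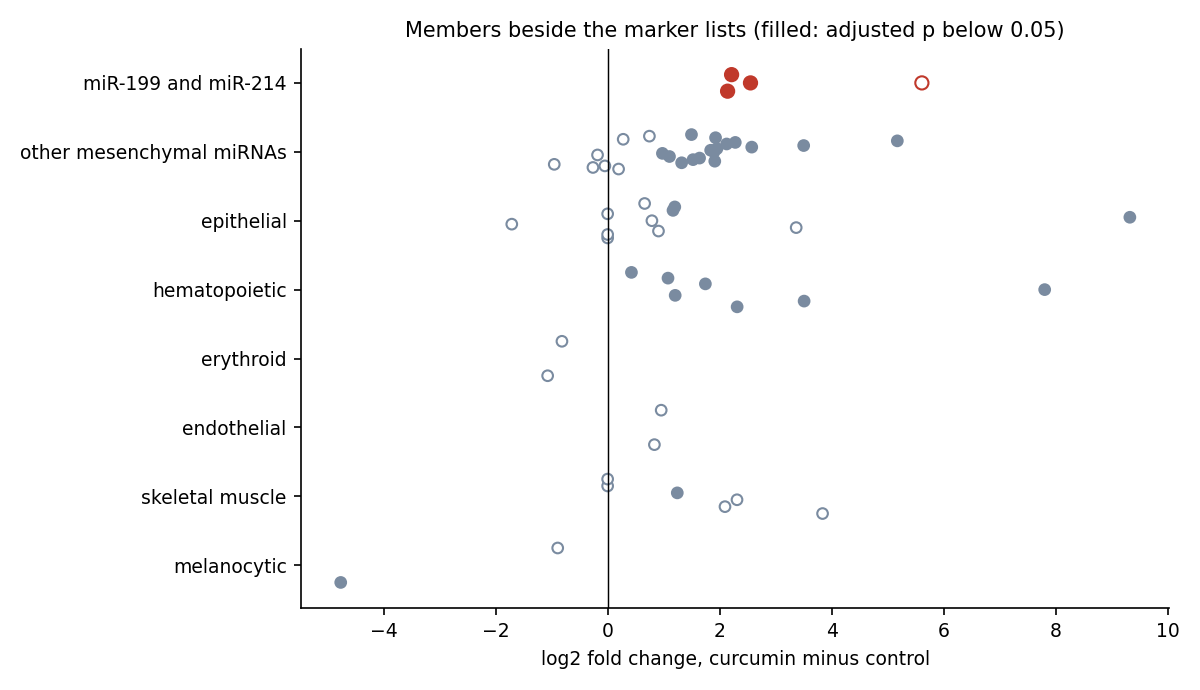
Log2 fold change, curcumin minus control (horizontal axis), of the 4 members (red) and of the miRNAs of each marker list (grey, 1 point per miRNA), filled where the limma adjusted p was below 0.05. Of the mesenchymal list 16 of 23 points are filled and above 0, and of the hematopoietic list 7 of 7.

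Among the markers of other cell types, those of the hematopoietic list moved with the members, as did 3 of the epithelial list. The hematopoietic list rose in 7 of 7 miRNAs (median log2 fold change 1.74), beside 8.34% of all miRNAs, and in 5 of the 5 detected on all arrays, beside 20.2%. Of the 7, 6 did not overlap between the diets, beside 4.08% of all miRNAs, and its summed normalized signal was 722 to 2070 in curcumin tumors and 400 to 598 in controls, without overlap. Within the diets its highest sums were in curcumin tumor 7 (2070) and control tumor 6 (598), and the lowest curcumin sum was in tumor 5 (722). These tumors stood at the same ends of mmu-miR-199a-5p. The lowest control sums were in tumors 1 (400.3) and 4 (400.4), and tumor 4 was the lowest control in mmu-miR-199a-5p. mmu-miR-199b-5p was highest in curcumin tumor 4, not in tumor 7. Of the epithelial list 3 of 11 rose (8.34% of all miRNAs), 6 of 11 were detected on no array, and the summed signal was 525 to 2477 in curcumin tumors and 285 to 468 in controls, again without overlap. The 3 were mmu-miR-205-5p, a miRNA of skin epithelium, with 9.32 (limma adjusted p = 0.0293, no overlap, 2 control values at the floor), mmu-miR-96-5p with 1.20 (adjusted p = 0.0142) and mmu-miR-183-5p with 1.17 (adjusted p = 0.0107), the last 2 of a cluster known from sensory cells. In curcumin tumors mmu-miR-205-5p had the highest mean log2 value of the epithelial list (9.80). On the other side, mmu-miR-200a-3p, mmu-miR-200b-3p and mmu-miR-375-3p, also markers of that list, were at the floor on all arrays. The part of these cell types in the members' difference was not tested.

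For the other lists the groups overlapped. The summed signals were 45.4 to 277 in curcumin tumors and 39.9 to 714 in controls for the erythroid list, where 0 of 2 miRNAs passed in limma and 0 had an unadjusted p below 0.05. They were 254 to 820 and 137 to 281 for the endothelial list. There 0 of 2 passed and 2 had an unadjusted p below 0.05, beside 26.4% of all miRNAs in either direction. The summed signals were 29.1 to 962 and 23.3 to 607 for the skeletal muscle list, where 1 of 6 rose (8.34% of all miRNAs). In that list mmu-miR-208b-3p and mmu-miR-499-5p were at the floor throughout. The melanocytic list had 4.19 to 624 and 308 to 847, and 1 of its 2 miRNAs fell, mmu-miR-211-5p, which is encoded in a melanocyte gene. Of the 1079 miRNAs 81 (7.51%) fell.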

How the data were processed

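RNA of 13 flank tumors was hybridized in 1 color, with 1 Agilent array per tumor. The authors made the intensity values with Feature Extraction 10.10.1.1 (background subtracted, spots of a probe combined, not normalized between arrays). A second table deposited by the authors holds log2 values, quantile normalized per the methods, and served as an alternative. Here the probe intensities were added up for each of the 1079 mouse miRNAs and quantile normalized. The 7215 of 14027 values that were not above 0 were replaced by 0.00765, the lowest positive one, and log2 was taken. The 57 virus miRNAs were left out. Diets were compared with limma 3.58.1 (R 4.3.3; lmFit, eBayes, two-sided, no covariates) with Benjamini-Hochberg adjustment at 0.05, and single values with exact permutation tests over the 1716 splits of the tumors. Exact p-values were two-sided, the smaller tail doubled. The limma step was tested on simulated data. Depth per array is given in the report, no spot was saturated, and the number of arrays limits the precision.

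Groups and replicate numbers came from the labels. The numbers were not treated as pairs, because the correlation of same-numbered tumors' deviations over 243 miRNAs ran from −0.30 to 0.20. No pair of arrays held identical values. The array names follow its design, and coordinates and sequences came from the RefSeq table of GRCm38.p6, not from the array's own build. The text names the 4 members, products of the same hairpins, marker lists, and the 5 miRNAs most correlated with the members' mean among those detected on all arrays. The members and lists were chosen with earlier results of these data known. Alternatives were the deposited values, scaling to the 75th percentile, no normalization, the brightest probe and a floor of 1. Also run were detected miRNAs only (those detected in all tumors of at least 1 diet) and the methods' t-test. Further ones were slide or replicate number as a block, single slides and each array left out. Background correction by normexp on the median spot signal and the array detection limit as the floor were added after seeing the data, as was leaving out arrays for the correlations. Other data of the study were not analysed here.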

Additional observations from a re-analysis of the deposited data

Results flagged for a closer look

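Curcumin tumor 5 stood apart from the other curcumin tumors in 3 of the 10 groups of values examined (5 miRNAs in 2 diets), by the ratio of its gap to the range of its group. Chance marks about 1 in 20 independent groups in this way, but the 3 marked here share the same array and are not independent. Its log2 value of mmu-miR-199a-3p was 8.45, where the next curcumin tumor had 9.27 (ratio 0.750, past Dixon's critical value for 7 samples). Its mmu-miR-199b-5p was 8.14, where the next had 9.17 (ratio 0.749). Its mmu-miR-214-5p was −7.03, the floor, where the next had −0.18 (ratio 0.674). The normalized signals before log2 were −0.45 and 0.88, so the size of this gap was set by the floor. This array also had the lowest summed signal (114095) and the fewest detected miRNAs (272), and the part of these in its values was not tested. Without it the log2 fold changes were 2.66, 2.35, 2.31 and 5.76 for mmu-miR-199a-5p, mmu-miR-199a-3p, mmu-miR-199b-5p and mmu-miR-214-3p (limma adjusted p = 0.00533, 0.000243, 2.69e-05 and 0.0633).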

How the results depend on the processing

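Under the 15 other settings and the 13 fits without 1 array, the 4 members were higher in curcumin tumors throughout. The smallest value of mmu-miR-199a-5p among them was 0.97, with normexp. mmu-miR-199a-5p lost the threshold without normalization (2.45, adjusted p = 0.0602), with the replicate block (2.39, adjusted p = 0.0538) and within slide 1 (2.85) and slide 2 (2.41). mmu-miR-199a-3p (2.05) and mmu-miR-199b-5p (1.98) lost it within slide 2, with standard errors of 0.47 and 0.39. Within slide 1, which held fewer arrays, both kept it, with standard errors of 0.25 and 0.13. mmu-miR-214-3p passed with the deposited values (2.09), normexp (0.44) and a floor of 1 (3.19). It also passed without control tumor 5 or 6. With the methods' t-test it passed with equal variances (5.61, adjusted p = 0.0353) but not with unequal variances (5.61, adjusted p = 0.0897). The t-tests were adjusted over fewer miRNAs than limma, because those with the same value on all arrays were left out. The unadjusted p of mmu-miR-214-3p was 0.00892 in the t-test with equal variances and 0.00798 in limma. Among detected miRNAs only, its limma adjusted p was 0.0125 (5.61). It entered that set through the curcumin tumors alone (detected in 7 of 7, against 3 of 6 controls). That filter depends on the difference being tested, so no conclusion is drawn from this pass. Leave-one-out values ran from 2.23 to 2.87, 2.02 to 2.40, 2.03 to 2.31 and 4.45 to 6.47 for mmu-miR-199a-5p, mmu-miR-199a-3p, mmu-miR-199b-5p and mmu-miR-214-3p.

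The 171 miRNAs past the threshold became 105 with the 75th percentile of all miRNAs, 49 without normalization, 61 with the detection limit as the floor, 67 with the replicate block, 34 on slide 1 and 3 on slide 2. Without 1 array there were 103 to 184, and under 115 without curcumin tumors 1, 2 or 6 or control tumors 2 or 4. The share of higher ones was 52.6% as reported, 69.5% with that percentile, 72.1% with the detection limit, 67.2% with the replicate block, 41.5% among detected miRNAs and 20.4% without normalization. The count of 16 mesenchymal miRNAs became 5 without normalization, 5 with the replicate block, 4 on slide 1 and 0 on slide 2, and 13 to 16 without 1 array. Of all miRNAs 0.927% rose without normalization, 1.30% on slide 1 and 0.0927% on slide 2. In the replicate block, which leaves out curcumin tumor 7, mmu-miR-199a-3p was 2.17, mmu-miR-199b-5p 2.14 and mmu-miR-214-3p 5.39 (adjusted p = 0.0397, 0.0368 and 0.159), but the tumors share only a number.

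The count of 1 differing pair became 0 with the deposited values, with either 75th percentile and without normalization, 5 with normexp, and 1 to 2 without 1 array. Normexp, which adds 50 to each signal and so shrinks the folds of dim miRNAs, turned mmu-miR-199a-5p against mmu-miR-199a-3p (−0.92) and mmu-miR-199b-5p (−0.85). Signals near 0 are raised in the deposited values too. Normexp and those values turned the differences from mmu-miR-214-3p of mmu-miR-199a-5p (0.53 and 0.14), mmu-miR-199a-3p (1.45 and 0.081) and mmu-miR-199b-5p (1.37 and 0.012). Without 1 array, mmu-miR-199a-3p against mmu-miR-199b-5p ran from −0.013 (without control tumor 4) to 0.15. The 6 correlated pairs were 4 to 8 under other settings and 1 to 8 without 1 array, the 1 being without any of control tumors 2 to 6, which leaves 5 controls. Without curcumin tumor 5, r in curcumin tumors turned to −0.64 for mmu-miR-199a-5p with mmu-miR-199b-5p and −0.62 for mmu-miR-199b-5p with mmu-miR-214-3p, against up to 0.69 and 0.67 without another array. Otherwise the cause was not tested. Signals near background limit mmu-miR-214-3p and mmu-miR-214-5p. Normexp on the mean signal was not run.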
